A study of Mus musculus with 7 samples.

Results

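The genes described here encode the endothelin and tachykinin peptides, the receptors that bind them and the enzymes that make or destroy them. They were taken by symbol from a count table of cancer-associated fibroblasts (CAFs), and 4 of the 9 symbols, Edn1, Ednra, Ece1 and Tac1, had a row among the 12771 genes of that table. The other symbols were Edn3, Ednrb, Ece2, Tacr1 and Mme, and they were not analysed here. The set was chosen on the fold changes of Edn1 and Tac1, since an earlier analysis of the same libraries had placed both among the genes with the largest decreases. The comparison of the groups is therefore given for all 4 genes as a description with its errors, and with no p-value.

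The CAFs came from pancreatic tumors of mice of the strain C57BL/6 in the labels, C57BL/6J in the study's methods. KPC cells, a mouse pancreatic cancer line, had been injected into the pancreas of males 8 weeks old, and tumors were taken 2 to 3 weeks later. The KPC cells carried a short hairpin RNA against Brca2 (shBrca2, 4 mice) or a non-targeting hairpin (shControl, 3 mice), so the silencing was in the cancer cells and not in the sorted fibroblasts. Podoplanin-positive live cells without CD45 (immune), CD31 (endothelial) or EpCAM (epithelial) were sorted, and their poly(A) RNA was read at the 3' end by a variant of MARS-seq.

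Endothelin-1, the product of Edn1, is a short peptide known above all as a strong constrictor of blood vessels. Its precursor is cut by a furin-type protease and then by the endothelin-converting enzyme, ECE1, and the mature peptide acts on neighboring cells through the G protein-coupled receptors ETA (Ednra) and ETB (Ednrb). Tac1 encodes the precursor of substance P and neurokinin A, peptides best known from sensory nerves, where they act in pain and inflammation through the neurokinin-1 receptor (Tacr1). Neprilysin (Mme), a relative of ECE1, degrades both kinds of peptide. In the pancreas, stellate cells, which give rise to part of the CAFs, are known to respond to endothelin-1.

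The sequences around the transcription starts of Edn1 and Tac1 are shown because these were the members with the largest difference between the groups. Each window holds 250 bases before and 50 bases after the RefSeq start on GRCm38.p6, the mouse build also known as mm10. Edn1 lies on chromosome 13 (gene 42301476 to 42307990, plus strand) and Tac1 on chromosome 6 (gene 7555061 to 7562978, plus strand). Capitals mark matches, on either strand, to 7 short motifs that were searched in every window. Hypoxia-inducible factors bind the core ACGTG or GCGTG, which differs in its first letter. The E-box CACGTG contains the first of these. The core GATAA is that of GATA factors. AP-1 binds TGANTCA, and TGACTAA is a variant of that site. The last motif, TGACG, is the core of cAMP response elements.
Edn1, chr13:42301226-42301525, plus strand: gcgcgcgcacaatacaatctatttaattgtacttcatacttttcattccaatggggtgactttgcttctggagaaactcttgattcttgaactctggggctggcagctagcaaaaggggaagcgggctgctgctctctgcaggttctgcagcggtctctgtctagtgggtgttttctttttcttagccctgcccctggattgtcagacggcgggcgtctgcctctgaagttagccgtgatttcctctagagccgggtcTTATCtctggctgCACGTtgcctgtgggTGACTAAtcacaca
Tac1, chr6:7554811-7555110, plus strand: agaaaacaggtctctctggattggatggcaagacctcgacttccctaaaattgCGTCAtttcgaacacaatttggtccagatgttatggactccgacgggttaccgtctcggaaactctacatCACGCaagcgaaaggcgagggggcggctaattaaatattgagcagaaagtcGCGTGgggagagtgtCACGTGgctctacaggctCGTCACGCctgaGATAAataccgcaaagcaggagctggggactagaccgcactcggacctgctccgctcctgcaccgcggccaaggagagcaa

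In the Edn1 window the matches were GATAA on the minus strand at bases 9 to 13 after the start, ACGTG on the minus strand at bases 22 to 26 and TGACTAA on the plus strand at bases 37 to 43. All 3 lay downstream of the start that RefSeq gives. The Tac1 window had a CACGTG at bases -61 to -56, GCGTG in 3 places between -127 and -36, GATAA at -31 to -27 and TGACG in 2 places, of which the match at -43 to -39 overlaps a GCGTG. Matches of this kind are common. Among 32817 RefSeq windows of the same length, ACGTG was present in 19.6%, GCGTG in 32.4%, GATAA in 25.4%, TGACG in 20.8%, TGANTCA in 7.81%, CACGTG in 7.15% and TGACTAA in 2.35%. The Ednra window had none of the 7 motifs, and of the 4 Ece1 windows, 3 had GCGTG and 1 also had CACGTG. A match of letters does not show that a factor binds there.

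Edn1 was lower in shBrca2 CAFs in every library. The controls, which are numbered 1, 2 and 4, held 109, 59.5 and 136 normalized counts in that order, and shBrca2 replicates 1 to 4 held 17.2, 24.5, 27.6 and 28.5. Normalized counts are raw counts divided by a factor for the depth of each library. The groups did not overlap, and the lowest control, replicate 2, still stood well above the highest shBrca2 library. The 4 shBrca2 libraries lay close together, while the controls were spread widely. The group means were 102 ± 38.9 (SD, n = 3) in shControl and 24.4 ± 5.12 (SD, n = 4) in shBrca2, which is 4.23-fold lower (log2 fold change -2.08, standard error 0.34, 95% interval -2.74 to -1.42). Raw counts were 47 to 140 in shControl and 16 to 42 in shBrca2, so the lowest values carry a wide counting error: the 16 reads of shBrca2 replicate 3 have an exact Poisson 95% interval of 9.15 to 26. That interval covers counting error only.

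Tac1 was lower by a similar amount. The 3 controls held 58.1, 82.2 and 59.3 normalized counts, in the same order, and the 4 shBrca2 libraries held 7.75, 22.7, 22.5 and 13.2. Again every shBrca2 library lay below every control. The means were 66.6 ± 13.6 (SD, n = 3) and 16.5 ± 7.34 (SD, n = 4), which is 4.04-fold lower (log2 fold change -2.02, standard error 0.37, 95% interval -2.75 to -1.29). The libraries at the extremes were not those of Edn1 among the controls: shControl replicate 2 was the lowest control for Edn1 and the highest for Tac1. In shBrca2, replicate 1 was the lowest library for both. The raw count there was 9 for Tac1, with an exact Poisson 95% interval of 4.12 to 17.1, against 61 to 68 in the controls.

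Ece1, on chromosome 4 (137862237 to 137965229, plus strand), encodes the protease that releases endothelin-1 from its precursor. The 3 controls held 365, 401 and 392 normalized counts, and the 4 shBrca2 libraries held 238, 273, 332 and 294. The groups did not overlap here either, but the difference was small. The means were 386 ± 18.9 (SD, n = 3) and 284 ± 39 (SD, n = 4), which is 1.37-fold lower (log2 fold change -0.45, standard error 0.17, 95% interval -0.78 to -0.12).

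Ednra, on chromosome 8 (77663029 to 77724452, minus strand), encodes the receptor ETA, which couples to Gq and raises calcium in the cell. The 3 controls held 179, 161 and 135 normalized counts, and the 4 shBrca2 libraries held 188, 140, 159 and 212. The groups overlapped over most of their range. The means were 158 ± 22.2 (SD, n = 3) and 175 ± 32 (SD, n = 4), a difference within the spread between replicates. The 95% interval of the log2 fold change (0.14, standard error 0.22) ran from -0.28 to 0.56, which leaves room for a change of either sign. In the RefSeq annotation 3 long non-coding genes overlap Ednra and 2 overlap Ece1, and the handling of strand in the counting was not given in the sources used here, so some of their reads may belong to these neighbors. Edn1 and Tac1 overlap no other RefSeq gene.

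**Figure D1:**
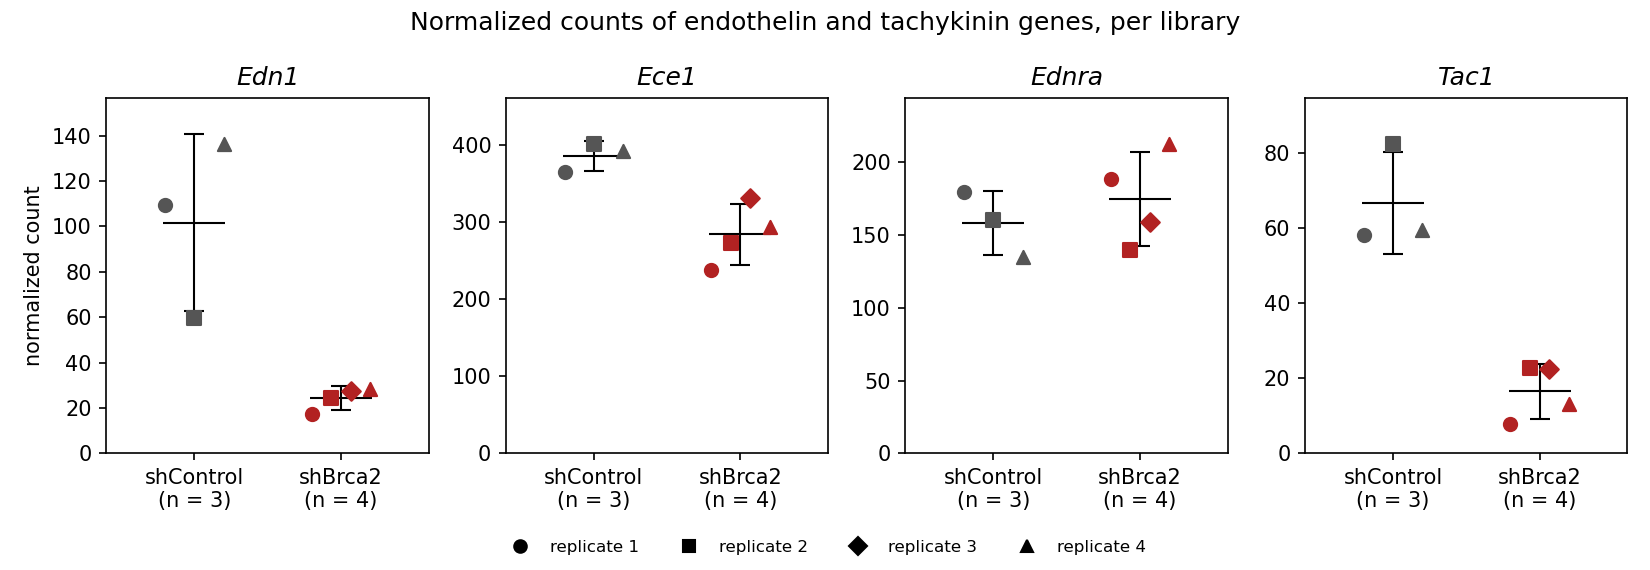
Normalized counts (vertical axes, each from 0) of Edn1, Ece1, Ednra and Tac1 in the 3 shControl libraries (grey) and the 4 shBrca2 libraries (red). Marker shapes give the replicate number, the horizontal line is the group mean and the bars are 1 SD; the groups are apart for Edn1, Ece1 and Tac1 and overlap for Ednra.

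A fit across all genes was used to place these values. DESeq2 with a likelihood ratio test called a gene at an adjusted p under 0.1, an absolute log2 fold change over 0.5 and a mean normalized count over 5. Of the 4 genes, 2 were called, Edn1 and Tac1, both lower. Over all 12768 genes tested, 9.04% were called, 3.77% higher and 5.27% lower. Since these genes were chosen with this contrast known, the count is a description. Of the 673 genes called lower, 32 had a larger decrease than Edn1 and 39 a larger one than Tac1. The groups did not overlap for 3 of the 4 genes, against 17.1% of all genes tested. Ece1 was not called, because its log2 fold change fell short of 0.5. Without shBrca2 replicate 3, its highest library in that group, the log2 fold change was -0.53 and it was called.

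Fits without 1 library show how far the values of Edn1 and Tac1 rested on single libraries. They reuse the libraries on which both genes were chosen, so they are not independent evidence. When each library was left out in turn, the log2 fold change ran from -2.35 to -1.82 for Edn1 and from -2.29 to -1.76 for Tac1, and both were called in all 7 fits. For Edn1 the value nearest to 0 was that without shControl replicate 4, its highest library. For Tac1 it was that without shBrca2 replicate 1, its lowest. Ednra ran from 0.03 to 0.24 and was called in none.

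**Figure D2:**
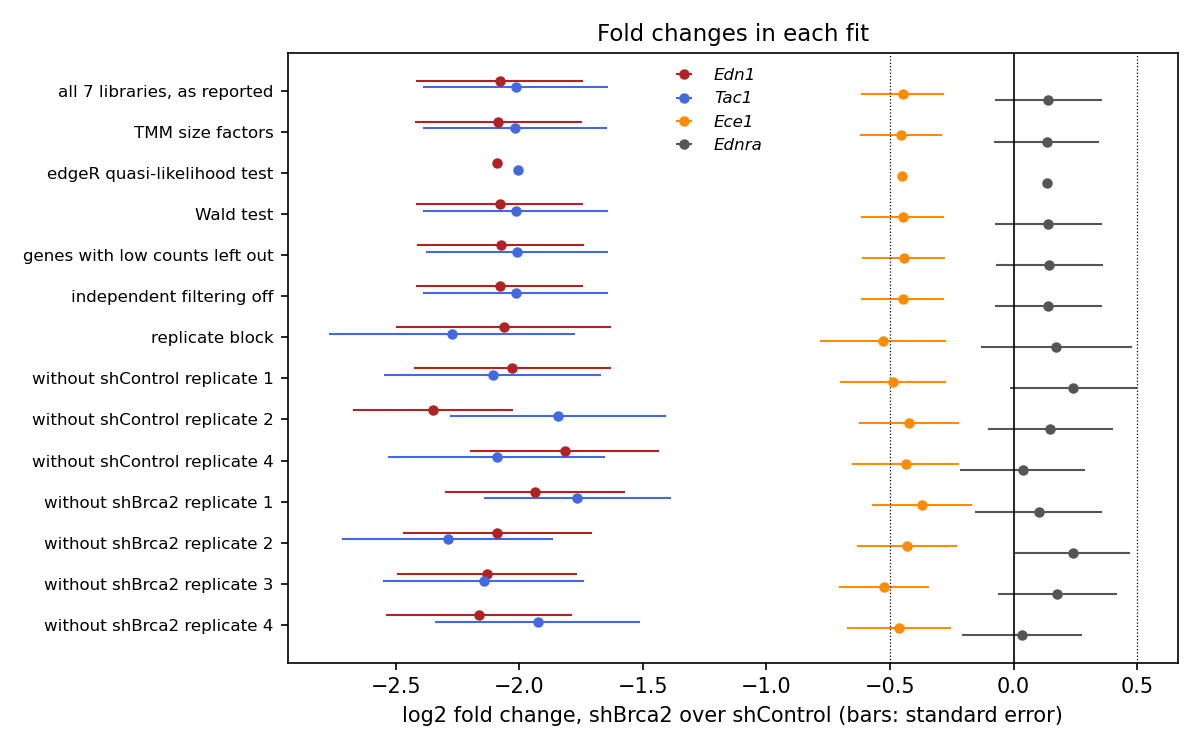
Log2 fold change of shBrca2 over shControl (horizontal axis) for Edn1, Tac1, Ece1 and Ednra in the fit to all 7 libraries, as reported, and in 13 other fits (vertical axis), with bars of 1 standard error where the fit gives one. The dotted lines mark the threshold of 0.5; Edn1 and Tac1 lie between -2.35 and -1.76 throughout, Ece1 between -0.53 and -0.37 and Ednra between 0.03 and 0.24.

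The levels of the 4 genes were then followed across libraries. On the scale of log2(normalized count + 1), Pearson's r between Edn1 and Tac1 was 0.86 over the 7 libraries, and 0.12 once the mean of each group had been taken off. Both genes were chosen on their fold changes between these groups, which largely fixes the first value. The second rests on 7 points and cannot show how much variation within groups the pair shares. For Tac1 and Ece1 the values were 0.94 and 0.74, and for Edn1 and Ece1 0.86 and 0.35. For Ednra the values were negative with Edn1 (-0.36 and -0.20) and with Tac1 (-0.51 and -0.57). The groups overlapped for Ednra, and so few points do not show an opposite course. These are descriptions over 7 points that share 2 groups and the same size factors.

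The genes whose pattern was most like that of Edn1, among 6735 with a mean normalized count over 50, were Thra (r = 0.99), Kif13b (0.98), Bscl2 (0.97), Cygb (0.97) and Arhgef18 (0.97). With the group means taken off, r was between 0.85 and 0.95, which the choice of the highest r largely fixes. Thra encodes a thyroid hormone receptor, Bscl2 encodes seipin of lipid droplets and Cygb encodes cytoglobin, a globin of fibroblasts and stellate cells. Of these, Kif13b (-0.60 on the log2 scale) and Cygb (-1.01) were called lower, and Thra (-0.27), Bscl2 (-0.38) and Arhgef18 (-0.52) were not called. Those most like Tac1 were Cacng7 (0.99), Fetub (0.98), Terf2 (0.98), Lbh (0.98) and Parp3 (0.98), with r between 0.89 and 0.97 within groups, again largely fixed by the choice. Fetub, which encodes the secreted protein fetuin-B, fell by 1.47 on the log2 scale, and Terf2, which encodes a telomere-binding protein, had a log2 fold change of -0.21. In all, 175 genes had r over 0.9 with Edn1 and 184 with Tac1, so these genes are the nearest among many.

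**Figure D3:**
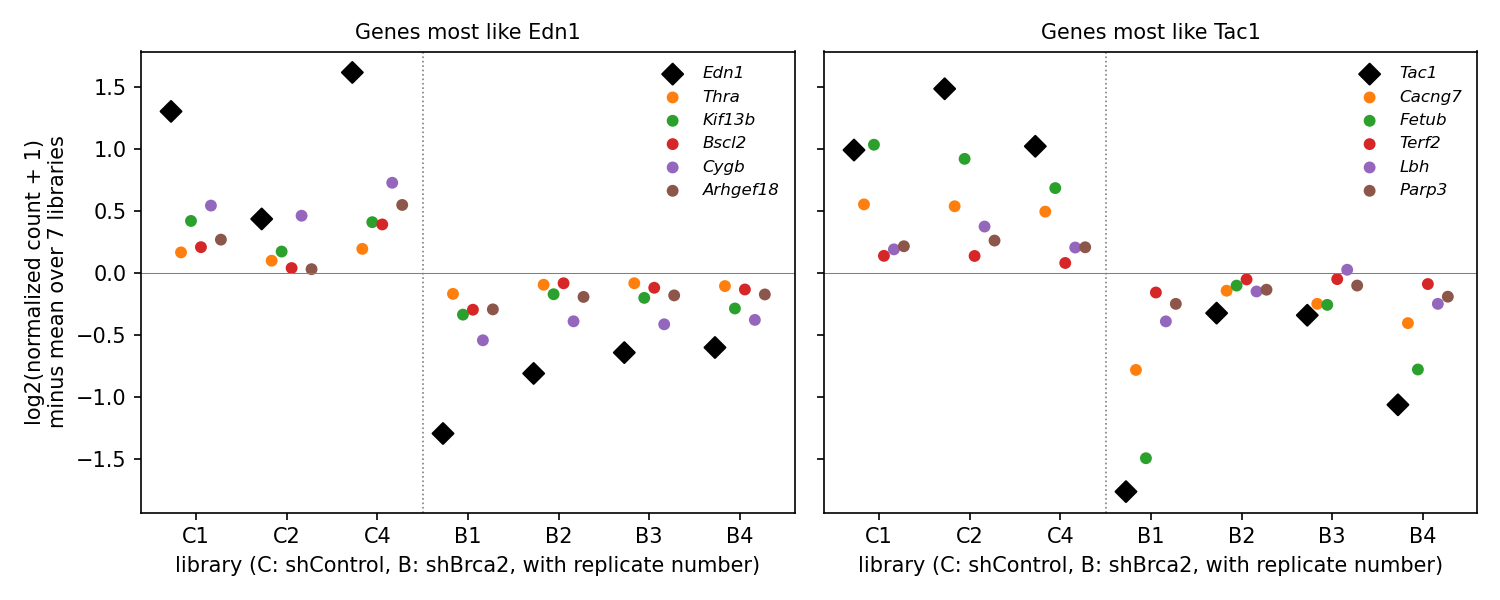
Log2(normalized count + 1) minus the mean over the 7 libraries (vertical axis) for Edn1 and Tac1 (black diamonds) and the 5 genes most like each (colored points), per library (horizontal axis; C is shControl and B is shBrca2, with the replicate number). All points of the shControl libraries lie above 0, and those of shBrca2 lie below it except Lbh in replicate 3; Edn1 and Tac1 have the widest range in their panels, followed by Cygb and Fetub.

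Endothelial cells are a main source of endothelin-1 in the body, and nerves of substance P, so markers of both were examined in the same libraries. Of 12 endothelial markers 8 had a row. Their summed level was 182 to 315 normalized counts in shControl and 255 to 350 in shBrca2, and the sums overlapped. The median log2 fold change of the 8 was -0.04, with 4 positive and 4 negative. Kdr, Esam and Flt1, which had the most counts of the 8, were among the positive ones, while Tek (-1.55, DESeq2 adjusted p = 0.12) and Vwf (-1.11, DESeq2 adjusted p = 0.52) were not called but had groups that did not overlap, lower in shBrca2. Plvap was at -0.59, not called. Pecam1, which encodes the sorting marker CD31, was near 0 but went the same way as Edn1, with 5.13, 17.7 and 1.95 normalized counts in the 3 controls and 1.72, 0.583, 0 and 0 in the 4 shBrca2 libraries (log2 fold change -3.60, DESeq2 adjusted p = 0.031). Its mean was under the minimum of 5, so it was not called. Pecam1 was highest in shControl replicate 2, the control with the least Edn1, but its raw counts in the 3 controls were only 6, 14 and 2. Whether endothelial cells had a part in the values of Edn1 was not tested. Flt1, a receptor for vascular growth factors, was the only endothelial marker called, and its log2 fold change was positive (1.23, DESeq2 adjusted p = 0.012), but it was not called without shBrca2 replicate 1 (0.96, DESeq2 adjusted p = 0.15). Of 12 nerve and Schwann cell markers 8 had a row, none was called, the median log2 fold change was -0.47, and their summed level was 425 to 529 in shControl and 366 to 584 in shBrca2. Mbp (0.18), Ngfr (0.80) and Stmn2 (0.68) had positive log2 fold changes. Those of Sox10 (-2.83), S100b (-1.09), Prph (-0.72), Tubb3 (-0.56) and Uchl1 (-0.38) were negative. Sox10, a marker of Schwann cells, had very few counts, with means of 3.3 in shControl and 0.577 in shBrca2. Its groups overlapped (DESeq2 adjusted p = 0.28).

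The sorted cells carried fibroblast markers in every library, with a summed level over 10 genes of 142537 to 158616 normalized counts in shControl and 113375 to 133472 in shBrca2. Pdpn, the marker used for sorting, was not called (log2 fold change -0.25, DESeq2 adjusted p = 0.42). The fibroblast genes Lum and Dcn were called lower, at -1.18 and -0.77, though Lum was not called without shControl replicate 1 (-0.94) and Dcn was not in 4 of the 7 fits that left out a library. Epithelial markers went the other way, at 387 to 1142 summed normalized counts in shControl and 1439 to 2040 in shBrca2, with 5 of 7 called higher. Of these 5, Krt19 was not called in 5 of the 7 fits that left out a library, and Elf3 was not in 3. Most of the epithelial sum came from the keratins Krt7, Krt8, Krt18 and Krt19, and Krt19 was on the mesothelial list too. Mesothelial sums were 1029 to 3500 and 2674 to 3359, where the only call among 9 genes was the same Krt19. The median log2 fold change of that list was 0.70. Msln (0.89, DESeq2 adjusted p = 0.44) was not called, but its groups did not overlap. Upk3b (-0.40) and Lrrn4 (-0.09) had negative values. Pericyte and smooth muscle sums were 2956 to 5369 and 3670 to 5949, with 4 of 13 genes called higher and a median log2 fold change of 0.59. Of the called genes, Cox4i2 was not called in 5 of the 7 fits that left out a library, Acta2 in 2 and Notch3 in 1. Immune sums were 186 to 202 and 290 to 311, with 1 of 4 genes called in each direction. The higher immune sum in shBrca2 came from Csf1r, called higher, with mean normalized counts of 113 in shControl and 248 in shBrca2. Mzb1 was called lower (log2 fold change -2.98). Cd52 (-0.69) and Lyz2 (-0.26) also had negative values but were not called, and the median of the immune list was -0.48. Whether these cells had a part in the values of Edn1 and Tac1 was not tested. In sorted bulk cells, fewer cells that express a gene and less of its RNA per cell cannot be told apart.

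Genes around the 2 peptide systems were compared next, in 7 lists of 124 genes, of which 89 had a row and were tested. Of these, 22 were called (24.7%), 9 of them higher and 13 lower, and the median log2 fold change was -0.14, against 9.04% called and a median of 0.0079 over all genes. The lists were written with results from these libraries known, among them that Ace, Agt and Agtr1a differed. The share of calls in the lists is therefore not independent evidence. The count fell to 12 without shControl replicate 1, to 14 without shBrca2 replicate 1 and to 14 without shBrca2 replicate 4. The calls of 11 genes held in every fit that left out 1 library. Of these, Anpep, Prkcd, Ecel1 and Gata4 were not called in a fit with the replicate number as a block. Ecel1 and Gata4 received no adjusted p in that fit.

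Of the same families, Tac2 and Ecel1 had a row. Tac2, which encodes the precursor of neurokinin B, stood at 68.3, 48.1 and 37.9 normalized counts in the 3 controls and at 25.8, 36.7, 17.3 and 34.6 in the 4 shBrca2 libraries. The groups did not overlap, but the nearest libraries were close, and it was not called (log2 fold change -0.81, standard error 0.34, DESeq2 adjusted p = 0.14). Ecel1 encodes an ECE1-like protease known from neurons. It was called higher from very few reads, with raw counts of 0, 4 and 1 in shControl and 16, 23, 14 and 11 in shBrca2 (log2 fold change 3.12, standard error 0.81, DESeq2 adjusted p = 0.0017). Without shControl replicate 2 its log2 fold change was 5.05.

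Among 8 enzymes that process peptide precursors, 2 were called lower and 2 higher, with a median log2 fold change of -0.16. Pcsk6, which encodes the furin-type protease PACE4, fell from 328, 190 and 163 normalized counts in the controls to 33.6, 76.9, 55.3 and 40.7 (log2 fold change -2.13, standard error 0.33, DESeq2 adjusted p = 6.4e-08). Cpe, whose product trims basic residues from peptides, rose from 21.4, 36.7 and 55.4 to 171, 121, 104 and 163 (log2 fold change 1.90, DESeq2 adjusted p = 2.3e-06). Neither group overlapped the other for these genes. Furin itself (0.20) and Pam (-0.54), which amidates peptides such as substance P, were not called (DESeq2 adjusted p = 0.77 and 0.38). Qpct was called lower at -1.60 but not without shControl replicate 1 (-1.17, DESeq2 adjusted p = 0.15), and Pcsk4 was called higher at 1.27 but in none of the 7 fits that left out a library.

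Among 10 other peptidases that cut vasoactive peptides, 4 were called and all 4 were lower, and the median log2 fold change was -0.44. Ace encodes the angiotensin-converting enzyme, which also cuts bradykinin and substance P. It fell from 1801, 1349 and 1744 normalized counts to 352, 745, 582 and 387, with no overlap (log2 fold change -1.66, standard error 0.26). Ace was known to differ in these libraries when the list was written, so its call is a description, given without a p-value. Dpp4, which trims substance P among other peptides, fell by 1.87 on the log2 scale (DESeq2 adjusted p = 0.0021), with 3.44 to 14.6 normalized counts in shBrca2. Anpep, which encodes aminopeptidase N, fell by 0.89 (DESeq2 adjusted p = 0.0011). Prcp was called at -0.52 but in only 1 of the 7 fits that left out a library.

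For genes downstream of the receptors, the shares called rested on few genes. They are given beside the 9.04% of all genes, with no test of a difference. Of 21 G protein and effector genes, 3 were called (14.3%), with a median log2 fold change of -0.15, and of 15 receptor kinase, arrestin and RGS genes 2 were (13.3%), with a median of 0.02. Gnaq and Gna11, which encode the G proteins that ETA couples to, were not called (-0.11 and -0.26 on the log2 scale). Prkcd, a protein kinase C, rose by 0.74 on the log2 scale (DESeq2 adjusted p = 0.00092). Grk5, a kinase that switches off active receptors, was lower at -1.03 (DESeq2 adjusted p = 0.0061), but was not called without shControl replicate 1 (-0.89, DESeq2 adjusted p = 0.12). Rgs4 (-1.33) and Arhgef12 (0.59) were not called in 5 of the 7 fits without 1 library, and Prkca (-0.68) was not in any.

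Of 15 genes of the angiotensin, natriuretic peptide, kinin and nitric oxide systems, 1 was called higher and 3 lower, and the median log2 fold change was -0.33. Kng2, a kininogen from which kinins are cut, fell by 1.04 on the log2 scale (DESeq2 adjusted p = 0.0046), from 534 to 647 normalized counts in shControl to 194 to 449 in shBrca2. Kng1 is a close copy of it, so its reads are uncertain. Agt, which encodes angiotensinogen, was called lower at -2.04 from raw counts of 3 to 28, and was not called without shControl replicate 1 (-1.86, DESeq2 adjusted p = 0.13) or shControl replicate 4 (-1.77, DESeq2 adjusted p = 0.15). Agtr1a, an angiotensin receptor, was called at -1.28, and without shControl replicate 1 it stood at -0.77 (DESeq2 adjusted p = 0.58). It was not called in 4 of the 7 fits. Agt and Agtr1a were known to differ in these libraries when the list was written, so their calls are descriptions. Pde5a, which encodes a phosphodiesterase of cyclic GMP, rose from 30.8, 43 and 32.1 normalized counts to 102, 63.5, 86.4 and 89.4 (log2 fold change 1.28, DESeq2 adjusted p = 0.0004).

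Transcription factors known at the Edn1 promoter were the last list. Of 18 tested, 3 were called higher and 1 lower, and the median log2 fold change was -0.08. Epas1, which encodes HIF-2α, was the gene called lower. It fell from 485, 485 and 664 normalized counts to 169, 268, 295 and 140 (log2 fold change -1.33, standard error 0.27, DESeq2 adjusted p = 7.0e-05). Hif1a, its better known relative, was not called (0.12, DESeq2 adjusted p = 0.91), nor were Arnt (-0.42), Jun (-0.02) and Fos (-0.10). Gata4 was higher at 2.45 (DESeq2 adjusted p = 0.00091), with raw counts of 1 to 6 in shControl and 11 to 31 in shBrca2. Gata6 (0.80) and Smad3 (0.59) were called higher, but each was not called in 5 of the 7 fits that left out a library.

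**Figure D4:**
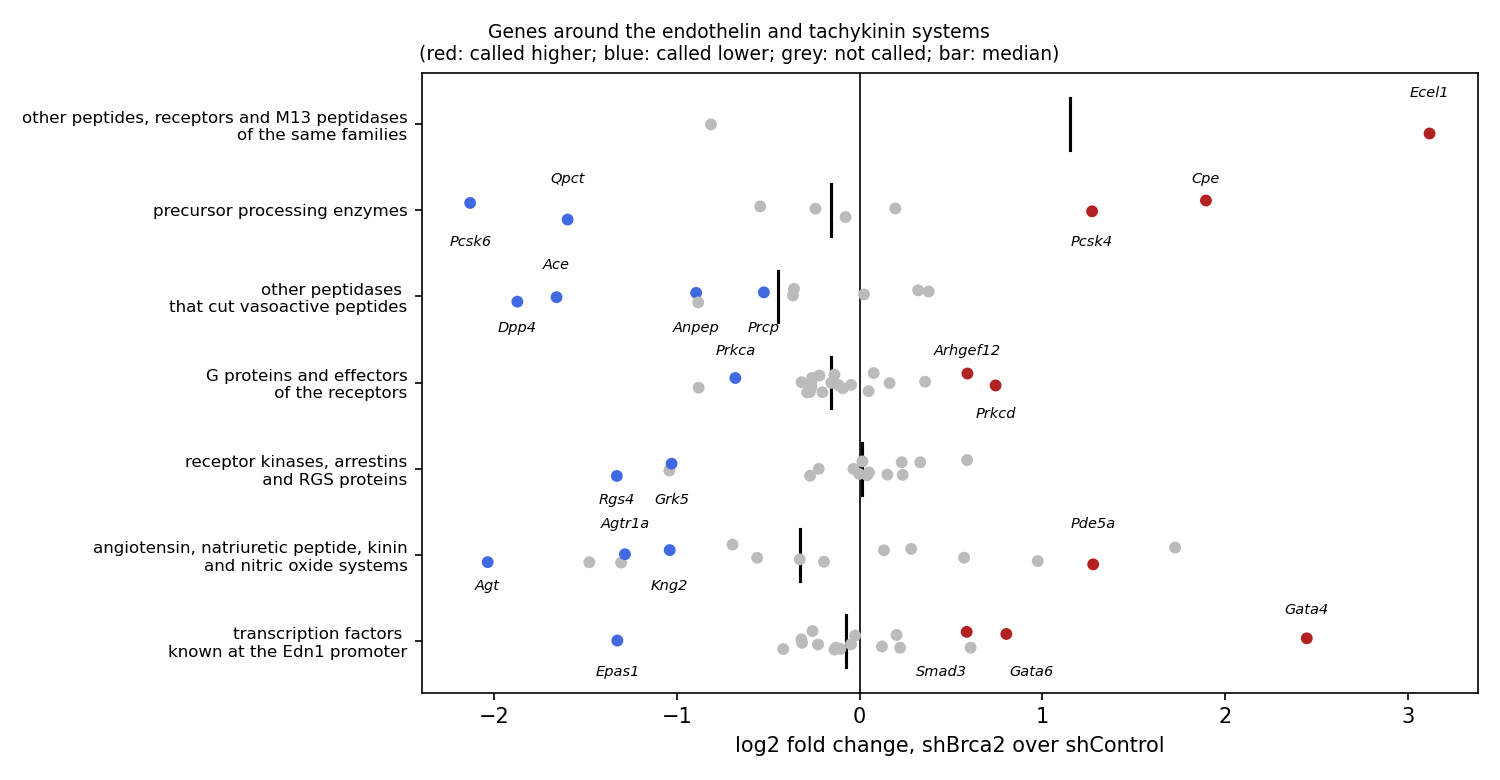
Log2 fold change of shBrca2 over shControl (horizontal axis) for 89 genes in 7 lists (vertical axis), with genes called higher in red, called lower in blue and others in grey, and the median of each list as a bar. The 4 called peptidases that cut vasoactive peptides are all on the left, while called genes of the processing list lie on both sides.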

How the data were processed

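RNA of 3 shControl and 4 shBrca2 CAF samples had been sequenced at the 3' end. The authors deposited raw counts per gene symbol, 1 column per library, not normalized. The submitters' processing notes name bcl2fastq, cutadapt, STAR 2.4.2a, HTSeq, DESeq2 and the build mm10; which annotation was used, how strand was treated and whether molecular barcodes were collapsed were not given in the sources used here, so counts may include PCR copies. Totals ran from 1898679 to 5990579 counts per library, and low counts limit precision. Every pair of libraries differed by more than counting error (lowest mean chi-square per gene 3.16, where counting error gives about 1).

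As in the study's own methods, group was tested by the likelihood ratio test of DESeq2 1.42.0 under R 4.3.3, over all 7 libraries with its default size factors and Benjamini-Hochberg adjustment over all genes. Fold changes were not shrunken. 3 genes received no p. Alternatives were TMM size factors, the edgeR 4.0.16 quasi-likelihood test, the Wald test, removal of genes with low counts (at least 10 counts in 3 libraries required), no independent filtering, the replicate number as a block, and each library left out. The code was tested on simulated data. Members and lists were chosen with earlier results of these data known. Named genes were all members, called list genes (up to 4 per list and direction, up to 3 per marker list, plus sorting markers) and the 5 genes most like Edn1 or Tac1; uncalled genes named from lists were picked after their values were seen. Positions and windows came from RefSeq tables on GRCm38.p6, in which all 4 members were found.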

Additional observations from a re-analysis of the deposited data

Results flagged for a closer look

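In the 4 shBrca2 libraries, 1 library stood far from the other 3 for 4 of 51 named genes, and about 1 in 20 groups is marked by chance. It was replicate 2, the library with the most counts, each time. Qpct had 76.4 normalized counts there against 27.4 to 28.4 in the others (gap over range 0.98), with 51.9 to 186 in shControl. Prcp had 170 against 126 to 128 (0.95), and Notch3, a pericyte gene, had 72.3 against 122 to 128 (0.90). Mzb1, a plasma cell gene, had 5.83 against 0 to 0.861 (0.85). None of the 4 members was marked. The part that replicate 2 had in these values was not tested.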

How the results depend on the processing

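Edn1 and Tac1 were called lower, and Ednra was not called, in all 13 alternatives, with log2 fold changes of -2.35 to -1.82, -2.29 to -1.76 and 0.03 to 0.24. Since Edn1 and Tac1 were chosen on their fold changes in these libraries, the alternatives are not independent evidence for them. Ece1 stayed between -0.53 and -0.37 and was called only without shBrca2 replicate 3. Leaving out 1 library, the number of members called was 2 to 3, of list genes called 12 to 20 against 22, and of all genes called 615 to 1305 against 1154. The low counts were without shBrca2 replicate 1 (615), shControl replicate 1 (630) and shBrca2 replicate 4 (662). With the replicate number as a block, 491 genes, 7 list genes and 2 members were called. Same-numbered libraries had correlations of -0.13, -0.17 and -0.18 in their deviations from group means, and other pairs had -0.21 to 0.29. With 3 and 4 libraries per group, these correlations cannot decide whether the numbers pair the libraries. The other 5 alternatives kept each of these counts within 1.5 times. Among the 41 members and list genes refitted, no fold change changed sign in any alternative run for it. The fold changes of the genes most like Edn1 or Tac1 and of other uncalled list genes were not refitted. The correlations of Edn1 and Tac1 with their nearest genes stayed at 0.96 or above without any 1 library, an alternative chosen after seeing the data. The planned ratio of Ednra to Ednrb was not run, since Ednrb was not analysed here. Depth limits the lowest genes (Agt, Ecel1, Gata4 and Pecam1).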
